A study of Mus musculus with 16 samples.

Results

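Dorsal skin wounds that had been under mechanical load for 10 days were compared with unloaded wounds of the same age, 14 days after injury. The comparison used the 8 arrays whose labels read wound, day 14, and either stressed or unstressed, out of 16 arrays in the series. Each group held 4 arrays, and the design text gives 4 mice to a group and time point. All mice were wild-type C57BL/6 labelled female, each with an incision on the back, and loading followed a published mouse model of hypertrophic scarring. The other 8 arrays, from day 6 after 48 hours of loading, enter only where the effects at the days are compared. Whole wound tissue was extracted, so every value is a mean over all its cells. The labels do not say whether a stressed and an unstressed wound came from the same mouse, or whether RNA was pooled.

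Each of 34945 probe sets with a single gene symbol was tested, and these stand for 18193 genes. The deposited signals were read as log2 values, although the base is not stated in the sources used here, and they had been centred per probe set, so 0 marks no level and a value can be read only against the other arrays. A difference is always stressed minus unstressed, in log2 units, with its standard error (SE) over 4 against 4 arrays. Adjusted p-values are from limma with Benjamini-Hochberg adjustment over all 34945 probe sets, and a gene is said to have risen or fallen where that value is under 0.05. The centring leaves no level at which the labelled tissue could be checked against its markers. The number of arrays limits the precision.

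In a healing incision, fibroblasts replace the first provisional matrix with collagen, which is secreted as procollagen, trimmed outside the cell, assembled into fibrils with the help of small proteoglycans and minor collagens, and then crosslinked by lysyl oxidases. Macrophages clear debris and supply growth factors, and matrix metalloproteinases with their inhibitors remodel what has been laid down. Tension across a wound is known to prolong this phase and to give a raised, thick scar. Mouse dorsal skin also holds a fat layer, a thin sheet of striated muscle and cycling hair follicles, any of which can be part of a tissue sample.

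After 10 days of loading, the genes that rose included genes of the extracellular matrix and of macrophages. Fewer genes fell at this threshold, a mixed set that includes genes of muscle and of glycogen and lipid metabolism. Of the 34945 probe sets, 102 rose, which is 0.292%, and 20 fell, which is 0.0572%. They belong to 85 genes that rose and 19 that fell, 16 genes being called by more than 1 probe set and 0 by probe sets of opposite direction. The size of the difference ran from 0.70 to 5.25 among the 122 calls, and 111 of them exceeded 2-fold. All 122 had no overlap between the groups, as did 3518 of all 34945 probe sets. Groups that do not overlap must also have the same sign in each of the classes of arrays described next. In whole tissue, fewer cells of a type and less RNA per cell cannot be told apart. Before adjustment, 6264 probe sets had a limma p under 0.05. That fewer fell than rose depended on the threshold and on single arrays. At 1 probe set a gene, an unadjusted p under 0.05 was reached by 1679 genes as higher and by 1799 as lower. Without stressed replicate 4, 331 probe sets rose and 584 fell.

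**Figure D1:**
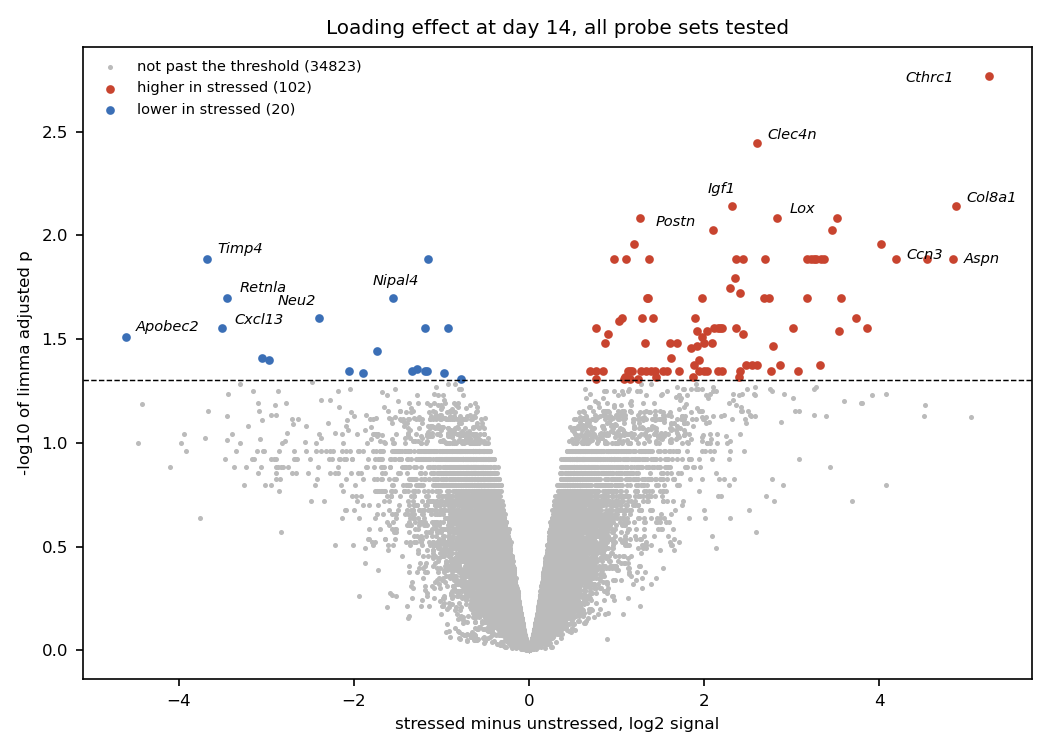
Each point is 1 of 34945 probe sets; the x axis is the stressed minus unstressed difference in log2 signal and the y axis is -log10 of limma's adjusted p, with the dashed line at 0.05. Red points are the 102 probe sets that rose and blue points the 20 that fell; Cthrc1 stands at the upper right with a difference of 5.25.

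The arrays of each group came in 2 kinds. Xist, the RNA that coats the inactive X chromosome of female cells, read 5.98 to 6.30 in replicates 3 and 4 of both groups and 0.17 to 0.81 in replicates 1 and 2 of both groups. The Y-linked gene Eif2s3y ran the other way, at -0.74 to -1.54 in replicates 1 and 2 and at -5.57 to -5.70 in replicates 3 and 4, which goes against the female label of replicates 1 and 2. Each kind held 2 stressed and 2 unstressed arrays, so it is balanced over loading, and the kinds are called the low Xist and the high Xist class below. Same-numbered stressed and unstressed arrays share a class, and their deviations from the group means correlated in all 4 pairs, at 0.14 to 0.26. Differently numbered arrays of the same class also correlated, at 0.07 to 0.23, so this does not show a pairing by number. The main fit had no block, and the number was fitted as a block only as an alternative. With that block 538 probe sets passed, 325 higher and 213 lower, and 111 of the 122 calls remained. With the class as a block 1153 passed, 706 higher and 447 lower, and all 122 remained. Within the low class alone 4568 passed, and within the high class alone 3 passed.

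The count moved by more than 1.5 times when any array other than unstressed replicate 4 was left out. It was 16 without unstressed replicate 1, 24 without unstressed replicate 2, 59, 48 and 48 without stressed replicates 1, 2 and 3, 225 without unstressed replicate 3 and 915 without stressed replicate 4. The share of rising probe sets also depended on those arrays: 36.2% of the calls were higher without stressed replicate 4 and 45.8% without unstressed replicate 3, against 83.6% with all arrays. Quantile normalization of the arrays gave 491 calls, of which 66.8% were higher. Only 11 genes passed in all 8 fits that each left out 1 array, and they were Cthrc1, Col8a1, Lox, P3h3, Postn, Igf1, Clec4n, Plagl1, Sox11, Gria3 and Timp4, the last of which fell. This set was read off after the fits. The number of these 8 fits in which a call was kept is given with the called genes below.

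Promoters of 3 of the genes that moved are shown as 1 matrix gene and 1 growth factor that rose and 1 chemokine that fell, each with a motif match. Each runs from 250 bases before to 50 bases after the RefSeq start, on build GRCm38.p6, in lower case with motif matches in capitals. The motifs searched on both strands were TGANTCA for AP-1, CATTCC for TEAD and TATAAA for the TATA box, and a position counts the first base of the match from the start.
Col3a1, chr1:45311288-45311587, plus strand: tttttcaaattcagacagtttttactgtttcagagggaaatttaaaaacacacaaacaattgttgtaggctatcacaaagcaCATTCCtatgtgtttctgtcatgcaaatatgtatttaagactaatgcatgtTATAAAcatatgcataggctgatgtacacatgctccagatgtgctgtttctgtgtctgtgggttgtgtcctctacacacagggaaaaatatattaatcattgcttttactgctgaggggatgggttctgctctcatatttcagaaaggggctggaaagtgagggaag
Igf1, chr10:87860861-87861160, plus strand: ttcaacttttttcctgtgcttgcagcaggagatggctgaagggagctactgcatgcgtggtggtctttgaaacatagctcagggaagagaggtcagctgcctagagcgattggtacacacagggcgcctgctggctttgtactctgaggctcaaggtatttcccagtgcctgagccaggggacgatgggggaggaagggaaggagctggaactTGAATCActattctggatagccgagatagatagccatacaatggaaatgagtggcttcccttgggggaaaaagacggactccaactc
Cxcl13, chr5:95956689-95956988, plus strand: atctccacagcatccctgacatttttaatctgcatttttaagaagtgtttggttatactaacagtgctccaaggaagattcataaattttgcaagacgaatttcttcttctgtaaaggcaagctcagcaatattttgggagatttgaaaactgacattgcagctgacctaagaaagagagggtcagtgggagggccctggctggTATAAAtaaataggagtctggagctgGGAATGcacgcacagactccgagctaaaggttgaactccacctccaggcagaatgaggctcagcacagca
Col3a1, which rose, has a TEAD match at -168 and a TATA match at -117. Igf1, which rose, has an AP-1 match at -37. Cxcl13, which fell, has a TATA match at -46 and a TEAD match on the other strand at -20. Of the 104 called genes 82 had an entry in the RefSeq promoter table by symbol. AP-1 letters were present in 6 of 64 promoters of genes that rose and 1 of 18 of genes that fell, against 7.93% of all 27025 promoters of that length. TEAD letters were present in 7 of 64 and 5 of 18, against 14.6%, and TATA letters in 12 of 64 and 4 of 18, against 14.2%. These matches are descriptions and no binding was measured.

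Cthrc1, a secreted protein made by activated fibroblasts, gave the largest difference of all calls. Its signal was -3.81, -4.18, -4.80 and -5.06 in unstressed replicates 1 to 4 and 0.73, 1.40, 0.51 and 0.52 in stressed replicates 1 to 4. Every stressed array was above every unstressed array by more than 4 log2 units. It rose by 5.25 (SE 0.31, n = 4 and 4, limma adjusted p = 0.0017), it was called in 8 of 8 leave-one-out fits, and it was among the 3 probe sets called within the high Xist class alone.

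The genes of the matrix were counted at 1 probe set a gene, the most variable over the series, for 4 lists that together hold 146 measured genes. At this level 0.379% of all 18193 genes rose and 0.077% fell, or 1.22% and 0.819% once the replicate number was blocked, and the groups did not overlap, stressed higher, for 5.86% of all genes and, stressed lower, for 4.52%. An unadjusted p under 0.05 was reached by 9.23% of all genes as higher and by 9.89% as lower, against which such counts below are to be read. Of the 146 matrix genes 20 rose and 1 fell, or 46 and 2 with the block, and 71 lay higher and 3 lower without overlap. The 20 became 5 without unstressed replicate 1, 9 without unstressed replicate 2, 12 and 13 without stressed replicates 1 and 3, and 36 without stressed replicate 4.

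Among 39 collagen chains 6 rose and 0 fell, 9 and 0 with the block, and 14 lay higher without overlap. Their median difference was 0.37, against 0.01 for all genes. The members that rose were the fibrillar chains Col1a2, Col3a1 and Col5a2, the fibril-associated chains Col12a1 and Col16a1, and Col8a1. Col8a1, a short chain of the non-fibrillar collagen VIII, read -3.77, -3.71, -5.11 and -5.10 in the unstressed arrays and 0.20, 1.11, -0.07 and 0.56 in the stressed ones. The groups lay at least 3 log2 units apart, with the high Xist arrays lowest among the unstressed. It rose by 4.88 (SE 0.40, adjusted p = 0.0072 in limma, kept in 8 of 8).

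Col3a1, the fibrillar chain typical of early wound collagen, read -1.73, -1.48, -3.52 and -2.65 in unstressed and 0.84, 0.82, 0.61 and 0.42 in stressed replicates. Its stressed values lay within a narrow range while the unstressed ones spread widely. The rise was 3.02 (SE 0.40, limma adjusted p = 0.028), and it was kept in 3 of 8 fits. Its other probe set differed by 0.98 (limma adjusted p = 0.094). Col5a2, which regulates fibril diameter, rose by 3.18 (SE 0.34, limma adjusted p = 0.013, kept in 7 of 8). Col12a1, which decorates fibril surfaces, rose by 3.37 (SE 0.36, limma adjusted p = 0.013, kept in 6 of 8), although its 4 probe sets ranged from 0.04 to 3.74. Col16a1 rose by 0.84 and was kept in 1 of 8 fits. Col1a2 rose by 2.20 and was kept in 3 of 8 fits, losing its call also when its 3 probe sets were averaged.

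Col1a1, the partner chain of type I collagen, gave no call and its 2 probe sets pointed in opposite directions. The more variable one differed by -0.90 (SE 0.47, limma adjusted p = 0.35), with overlapping groups. The other differed by 1.66 without overlap (limma adjusted p = 0.15). The basement membrane chains Col4a1 and Col4a2 differed by 0.26 and 0.14 and did not pass. Col6a1, Col6a2 and Col6a3, which form the beaded filaments of collagen VI, differed by 1.74, 1.80 and 1.75, without overlap between groups and without passing the test.

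Of 24 genes that process and crosslink collagen, 3 rose and 0 fell, while 12 rose and 1 fell with the block. Groups did not overlap for 18 higher and 2 lower members, and the median difference was 1.33. Lox, the lysyl oxidase that starts crosslinks, read -2.0, -2.24, -3.29 and -1.99 in unstressed and 1.42, 1.44, 0.65 and 0.83 in stressed replicates. The lowest stressed array was more than 2 log2 units above the highest unstressed one. It rose by 3.47 (SE 0.32, limma adjusted p = 0.0094, kept in 8 of 8), its 3 probe sets ranging from 0.41 to 3.47.

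P3h3, of the prolyl 3-hydroxylase family that modifies procollagen in the endoplasmic reticulum, rose by 2.70 (SE 0.30, limma adjusted p = 0.013, kept in 8 of 8). P4ha3, a catalytic subunit of prolyl 4-hydroxylase, rose by 1.69 (SE 0.24, limma adjusted p = 0.033, kept in 3 of 8). Serpinh1, the collagen chaperone Hsp47, rose by 1.34 at 1 of its 2 probe sets, kept in 1 of 8, and the other differed by 1.43 without passing. Loxl1, which crosslinks elastin, differed by 2.10 (limma adjusted p = 0.054) and passed with the block at 0.026. The member that fell with the block was Pcolce2, an enhancer of procollagen cleavage, at -3.10 (limma adjusted p = 0.064 without the block).

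**Figure D2:**
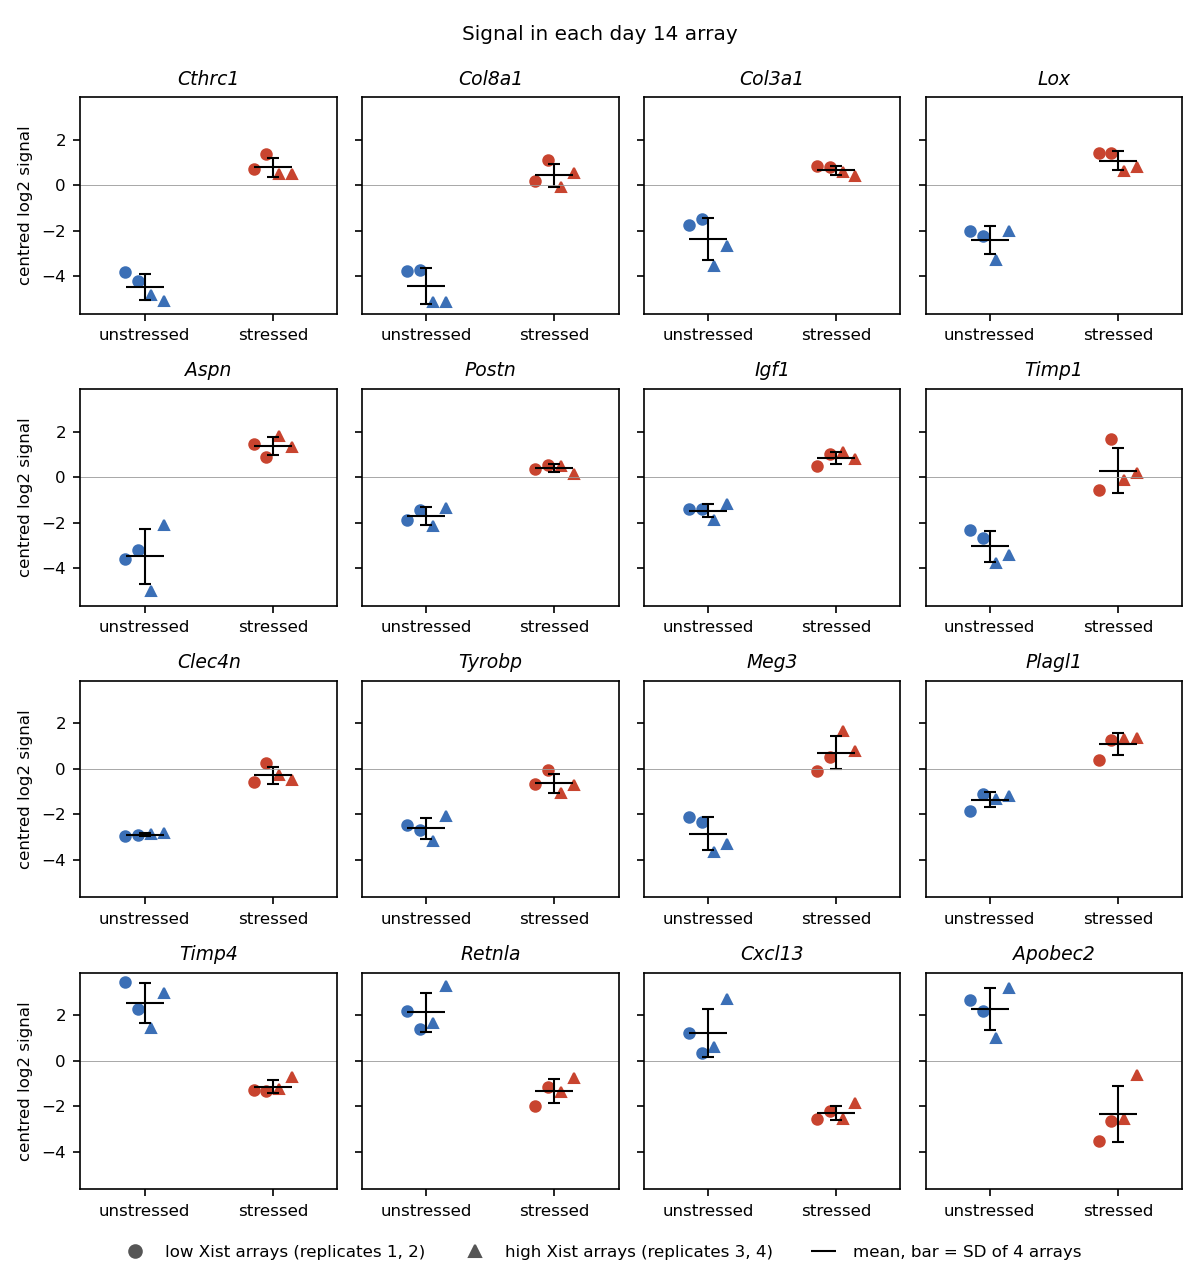
Each panel shows the centred log2 signal of 1 gene in the 4 unstressed (blue) and 4 stressed (red) arrays of day 14; circles are low Xist arrays, triangles high Xist arrays, and the black bar is the mean with the SD of 4 arrays. The groups do not overlap in any panel; in the bottom row Timp4, Retnla, Cxcl13 and Apobec2 lie lower in the stressed arrays.

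Proteoglycans, matricellular glycoproteins and elastic fibre genes formed the list with the most calls. Of 50 members 8 rose and 0 fell, 18 and 0 with the block, 25 lay higher without overlap, and the median difference was 1.11. Aspn, a small leucine-rich proteoglycan that binds collagen, read -3.60, -3.19, -5.02 and -2.10 in unstressed and 1.44, 0.87, 1.83 and 1.34 in stressed replicates. The unstressed arrays spread over almost 3 log2 units, none of them near a stressed array. The rise was 4.85 (SE 0.53, limma adjusted p = 0.013, kept in 6 of 8).

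Postn, periostin, a matricellular protein that binds collagen and integrins, read -1.90, -1.45, -2.15 and -1.34 in unstressed and 0.38, 0.54, 0.51 and 0.15 in stressed replicates. Both groups were tight. The rise was 2.11 (SE 0.20, limma adjusted p = 0.0094), it was kept in 8 of 8 fits, and it was 2.14 within the low and 2.08 within the high Xist class. Tnc, tenascin C, a glycoprotein of tissue under remodelling, rose by 3.22 (SE 0.34, limma adjusted p = 0.013, kept in 7 of 8).

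Among other members, Ccn3 rose by 4.19 and Ccn4 by 3.27, both secreted regulators of the CCN family, and were kept in 6 and 7 of 8 fits. Their relatives Ccn1 and Ccn2 differed by -0.11 and 0.26 and did not pass. The elastic fibre genes Mfap4 and Emilin1 rose by 3.18 and 2.68, kept in 3 and 6 of 8 fits. Fbn2 and Thbs2 differed by 3.25 and 3.27 without overlap, at limma adjusted p = 0.055 and 0.054, and Fbn2 passed with the block at 0.032. Dcn and Sparc, abundant products of dermal fibroblasts, differed by 0.36 and 0.23 and did not pass. The other probe set of Dcn differed by 0.62 without overlap and did not pass either.

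Proteases and their inhibitors were mostly higher, 32 of 33 members having a positive difference with a median of 0.98. Of these 3 rose and 1 fell, 7 and 1 with the block, and 14 lay higher and 1 lower without overlap. Adam12, a membrane metalloprotease of activated mesenchymal cells, rose by 3.33 (SE 0.35, limma adjusted p = 0.013, kept in 7 of 8). Mmp3, which cleaves proteoglycans and activates other metalloproteinases, rose by 2.76 (SE 0.42, limma adjusted p = 0.045, kept in 2 of 8). Mmp12, the metalloproteinase of macrophages, differed by 3.79 (limma adjusted p = 0.064).

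The inhibitors of metalloproteinases went in opposite directions. Timp1 read -2.30, -2.66, -3.78 and -3.42 in unstressed and -0.57, 1.67, -0.13 and 0.19 in stressed replicates. Timp4 read 3.44, 2.27, 1.44 and 2.99 in unstressed and -1.28, -1.34, -1.25 and -0.72 in stressed replicates. Timp1 was higher in every stressed array and Timp4 lower in every stressed array than in any unstressed one. Timp1 rose by 3.33 (SE 0.50, limma adjusted p = 0.042, kept in 2 of 8) and Timp4 fell by 3.68 (SE 0.39, limma adjusted p = 0.013, kept in 8 of 8). With quantile normalization the adjusted p of Timp4 was 0.058, which ends its call, and its second probe set differed by -1.01. Timp2 and Timp3 differed by 1.95 and 0.33 and did not pass, Timp2 passing with the block at 0.020.

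**Figure D3:**
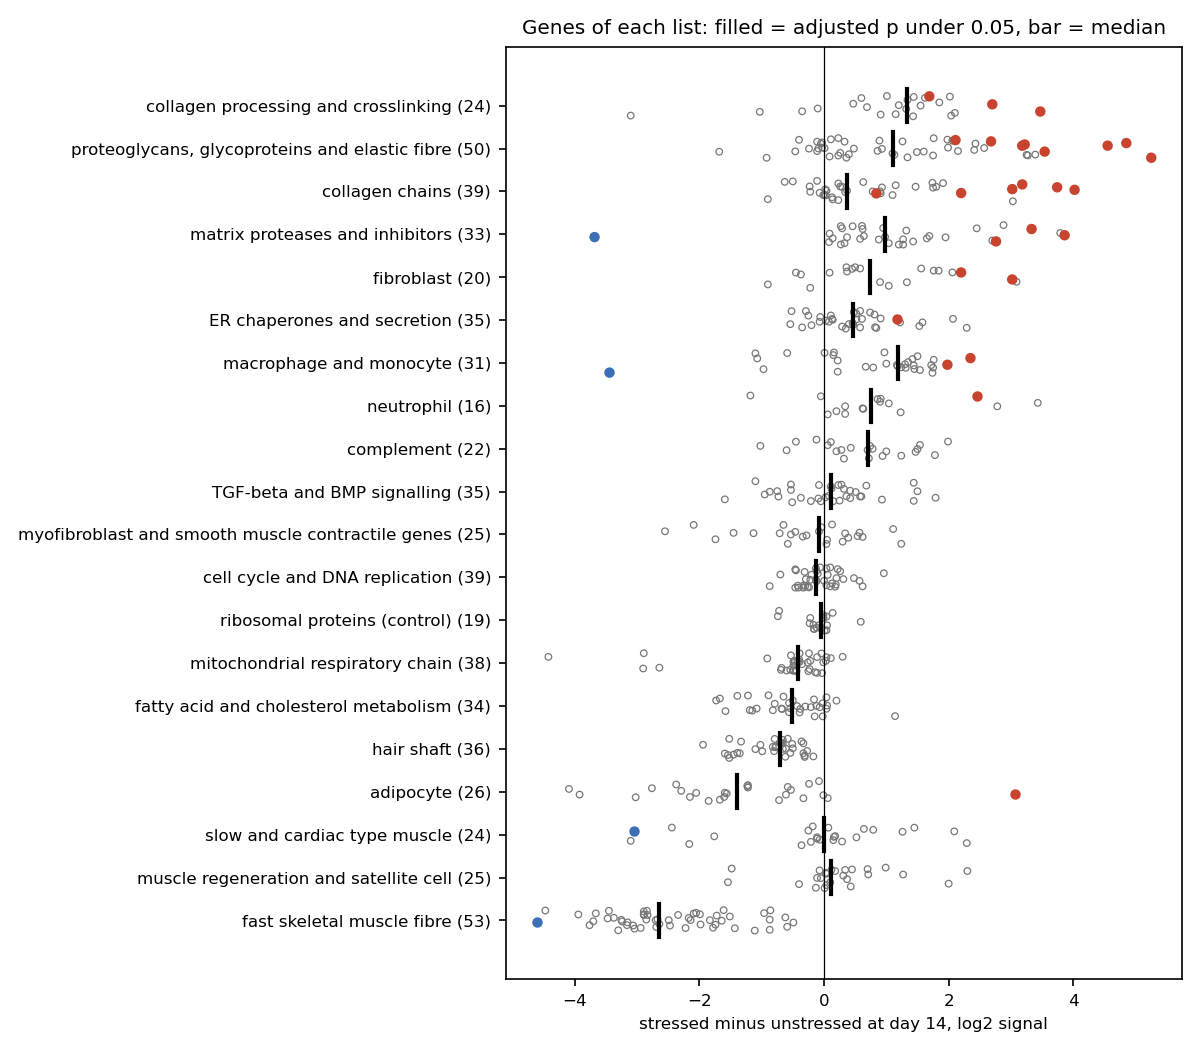
Each point is 1 gene of a list, placed at its stressed minus unstressed difference in log2 signal at day 14; filled points passed an adjusted p of 0.05, black bars are list medians, and the number of measured genes is in parentheses. Matrix and macrophage lists have medians between 0.37 and 1.33, while all 53 fast muscle genes lie below 0 with a median of -2.64.

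Of 20 fibroblast identity markers 2 rose and 0 fell, 3 and 0 with the block, and both that rose, Col1a2 and Col3a1, are collagen chains counted above. Pdgfra, the receptor that defines dermal fibroblasts, differed by 0.90 and Lum by 2.06, neither passing. Cdh11, a cadherin of mesenchymal cells, rose by 3.25 (SE 0.34, limma adjusted p = 0.013, kept in 7 of 8). The transcription factors Snai1 and Sox11, known from mesenchymal and progenitor states, rose by 1.44 and 1.20, kept in 3 and 8 of 8 fits, the 6 probe sets of Sox11 ranging from 0.24 to 1.20. Among genes of the secretory pathway 1 of 35 rose and 0 fell, 5 and 0 with the block, the 1 being the chaperone Hsp90b1 at 1.17, kept in 2 of 8 fits. Its adjusted p with the block was 0.056, and its other probe set differed by 0.10.

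Genes of contractile myofibroblasts gave a median difference of -0.08 over 25 members, with 0 calls in limma, 1 higher with the block and 10 at an unadjusted p under 0.05, 4 higher and 6 lower. Acta2, the smooth muscle actin that defines myofibroblasts, read -0.08, 0.08, -1.73 and -1.10 in unstressed and -1.88, 0.60, -1.25 and -0.61 in stressed replicates. The groups overlapped almost entirely. Its difference was -0.08 (SE 0.57, limma adjusted p = 0.96). Of 35 genes of TGF-beta and BMP signalling 0 passed, 2 rose with the block and 11 had an unadjusted p under 0.05. Tgfb3 differed by 1.79 (limma adjusted p = 0.065) and rose with the block at 0.045.

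Igf1, the growth factor that macrophages and fibroblasts supply in wounds, rose. It read -1.41, -1.39, -1.87 and -1.19 in unstressed and 0.50, 1.0, 1.11 and 0.82 in stressed replicates, with the groups well apart. The rise was 2.32 (SE 0.19, limma adjusted p = 0.0072, kept in 8 of 8). Of 38 genes of the PDGF, FGF, IGF, EGF and VEGF families it was the only call, and 2 rose and 2 fell with the block. Il33, an alarm cytokine of the interleukin-1 family held in the nucleus, rose by 2.87 (SE 0.43, limma adjusted p = 0.042, kept in 3 of 8) and was the only call among 49 interleukins, cytokines and receptors.

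Of 31 macrophage and monocyte markers 2 rose and 1 fell, 8 and 1 with the block, 17 lay higher and 2 lower without overlap, and the median difference was 1.18. Tyrobp, the adaptor through which myeloid receptors signal, read -2.45, -2.70, -3.18 and -2.08 in unstressed and -0.68, -0.06, -1.06 and -0.70 in stressed replicates. Every stressed array was higher. It rose by 1.98 (SE 0.27, limma adjusted p = 0.031, kept in 3 of 8). Ms4a7, a membrane protein of tissue macrophages, rose by 2.35 and was kept in 6 of 8 fits, while its other probe set gave 0.46. The defining markers Adgre1, Cd68, Csf1r and Fcgr1 differed by 1.44, 1.76, 1.45 and 1.72, none overlapping between groups and none passing, with Csf1r passing at 0.017 under the block.

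Clec4n, the dectin-2 receptor for fungal sugars on myeloid cells, had an SD of 0.06 over the unstressed arrays. It read -2.96, -2.90, -2.87 and -2.81 in unstressed and -0.58, 0.25, -0.28 and -0.49 in stressed replicates. It rose by 2.61 (SE 0.18, limma adjusted p = 0.0036, kept in 8 of 8), and its other probe set gave 3.51. The related receptor Clec4d rose by 2.45 and the lysosomal protease Ctss by 2.36, kept in 4 and 3 of 8 fits. Among 16 neutrophil markers Clec4d was the only call. S100a8 and S100a9, the most abundant proteins of neutrophils, differed by 2.78 and 3.43 without passing, S100a9 passing with the block at 0.039.

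The macrophage marker that fell was Retnla, a secreted product of macrophages exposed to interleukin-4. It read 2.17, 1.37, 1.64 and 3.30 in unstressed and -2.0, -1.16, -1.39 and -0.74 in stressed replicates. Every stressed array was lower, by more than 2 log2 units. It fell by 3.44 (SE 0.42, limma adjusted p = 0.020, kept in 4 of 8). Mgl2, Cd163 and Clec10a, also found on macrophages of that kind, differed by -0.97, -1.10 and -1.07 and did not pass, and Arg1 and Chil3 differed by 1.17 and 1.75.

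Cxcl13, the chemokine that draws B cells into follicles, read 1.21, 0.34, 0.61 and 2.70 in unstressed and -2.55, -2.19, -2.55 and -1.88 in stressed replicates. The stressed arrays were all lower. It fell by 3.51 (SE 0.46, limma adjusted p = 0.028, kept in 3 of 8) and was the only call among 54 chemokines and their receptors, where 2 rose and 1 fell with the block. Ccl2, the monocyte attractant, differed by 1.17 (SE 0.35, limma adjusted p = 0.14), its stressed replicate 4 at -1.43 lying within the unstressed range of -1.96 to -1.22. The difference was 1.86 in the low and 0.48 in the high Xist class.

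Among the genes that fell, several belong to striated muscle and to lipid and glycogen metabolism. Apobec2, a muscle protein of the cytidine deaminase family, read 2.68, 2.17, 1.01 and 3.19 in unstressed and -3.53, -2.64, -2.56 and -0.63 in stressed replicates. It fell by 4.61 (SE 0.64, limma adjusted p = 0.031, kept in 2 of 8), while a second probe set gave 0.52. Ankrd2, a stretch-responsive ankyrin repeat protein of muscle, fell by 3.05, and Ppp1r3c, which directs a phosphatase to glycogen, fell by 2.97. Gpat3, an acyltransferase of triglyceride synthesis, fell by 2.05. These 3 were each kept in 2 of 8 fits.

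Genes that fell outside those groups included Neu2, a cytosolic sialidase, by 2.39, and Nipal4, a transporter of the outer epidermis, by 1.55, both kept in 4 of 8 fits, the other probe set of Nipal4 differing by 0.41. Prkg2, a cyclic GMP dependent kinase, fell by 1.89 and Bcl2l1, which protects cells from apoptosis, by 1.19. With the block their adjusted p-values were 0.058 and 0.055, which ends both calls, and they were kept in 2 and 1 of 8 fits. The 4 probe sets of Bcl2l1 ranged from -1.19 to 0.07. Pfn2, Lrrc8e and Shisa2 fell by 1.19, 1.16 and 1.73, kept in 3, 1 and 2 of 8 fits. Zfp800 fell by 1.28 at 1 of its 7 probe sets, kept in 1 of 8, and the others differed by -0.79 to 0.30.

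The fast muscle fibre list was lower in all of its 53 measured genes, with a median difference of -2.64, and yet only Apobec2 passed. With the block 11 fell, 46 had an unadjusted p under 0.05, and 9 lay lower without overlap. Mean signals over the list were 0.63, 0.61, -1.09 and 0.68 in unstressed and -3.61, -2.26, -2.49 and -0.54 in stressed replicates. Unstressed replicate 3 was thus the lowest of its group, and stressed replicate 4, the highest of its group, lay above it. Without stressed replicate 4 31 of the 53 genes fell, and without unstressed replicate 3 11 fell. The median was -3.83 in the low and -1.37 in the high Xist class. The defining markers Acta1, Myh4 and Ckm differed by -1.83, -3.76 and -0.87 and did not pass.

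Other muscle lists did not follow. Slow and cardiac type genes had a median of 0.00 over 24 members, with Ankrd2 the only call, and genes of muscle regeneration a median of 0.12 over 25 members, with 0 calls in limma and 6 at an unadjusted p under 0.05. Tnnc1, the troponin C of slow muscle, read -3.14, -3.32, -3.67 and -3.57 in unstressed and -2.60, -2.42, -0.48 and 0.94 in stressed replicates, higher throughout and highest in stressed replicate 4. Its difference was 2.29 (SE 0.71, limma adjusted p = 0.16). Myh3, the embryonic myosin of forming fibres, differed by 2.0 (limma adjusted p = 0.21) and was also highest in stressed replicate 4, at 0.47.

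Adipocyte genes were lower in 24 of 26, with a median difference of -1.40, 0 of them passing as lower in limma, 3 falling with the block, 19 lower at an unadjusted p under 0.05, and 11 lower without overlap. List means were 0.78, 0.45, 0.07 and 1.02 in unstressed and -1.24, -1.27, -0.62 and 0.14 in stressed replicates. Stressed replicate 4 again lay above unstressed replicate 3, and without it 12 genes fell. Adipoq, the hormone that defines fat cells, differed by -4.09 (limma adjusted p = 0.13). The single call went the other way, Mest, which marks expanding fat but is also imprinted and fibroblast-expressed, rising by 3.07 and kept in 2 of 8 fits.

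Lists of fat and muscle metabolism ran in parallel. Of 38 respiratory chain genes 34 were lower, with a median of -0.41, 0 calls in limma, 4 falling with the block and 19 lower at an unadjusted p under 0.05. The 4 list members with the widest differences, Ckmt2 at -4.42, Cox7a1 at -2.90, Cox8b at -2.89 and Cox6a2 at -2.64, are forms specific to or enriched in muscle. Ckmt2 is a mitochondrial creatine kinase and not itself a part of the chain. Of 34 genes of fatty acid and cholesterol metabolism 29 were lower, with a median of -0.52, 0 calls in limma, 2 falling with the block and 16 lower at an unadjusted p under 0.05. The ribosomal protein control list had a median of -0.05. The part that the amount of muscle and fat in each sample has in the matrix and macrophage differences was not tested.

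**Figure D4:**
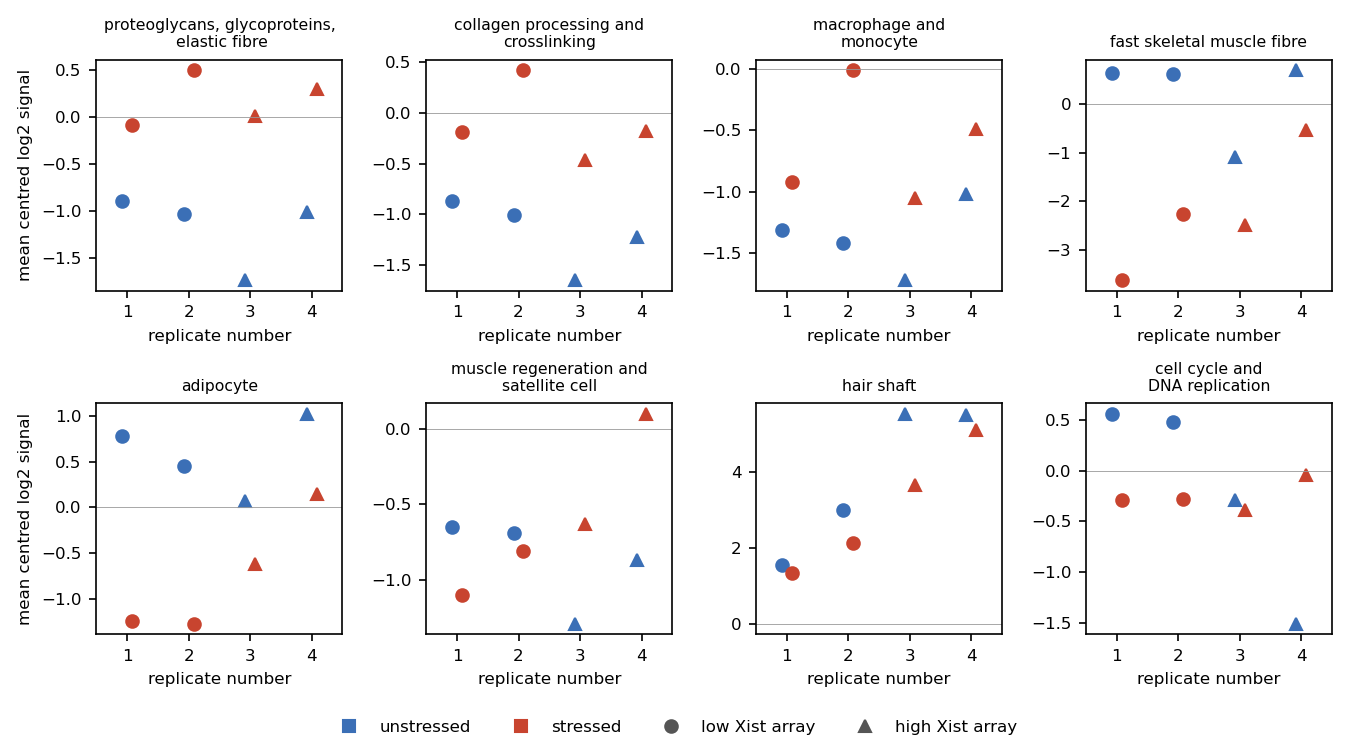
Each panel shows the mean centred log2 signal over 1 gene list in each day 14 array, by replicate number, unstressed in blue and stressed in red, circles for low Xist and triangles for high Xist arrays. Matrix and macrophage means are higher in the stressed array at every number; fast muscle and adipocyte means are lower at every number, and in both stressed replicate 4 lies above unstressed replicate 3.

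Hair shaft genes were higher in the high Xist arrays of both groups, and cell cycle genes gave opposite medians in the classes. Hair shaft means were 1.53 and 3.0 in the low and 5.52 and 5.49 in the high Xist unstressed arrays, and 1.32 and 2.11 in the low and 3.66 and 5.09 in the high Xist stressed arrays. All 36 measured genes were lower in stressed wounds, with a median of -0.71, but 0 passed in limma, 3 had an unadjusted p under 0.05, and 0 lay apart without overlap. That median was -0.13 without stressed replicate 1, -0.38 without stressed replicate 2, -1.54 without stressed replicate 4, -1.62 and -1.10 without unstressed replicates 1 and 2, -0.19 and -0.32 without unstressed replicates 3 and 4, and -0.27 after quantile normalization. Of 39 cell cycle genes 0 passed and 1 had an unadjusted p under 0.05. Their median difference was -0.85 within the low and 0.67 within the high Xist class. Unstressed means were 0.56, 0.48, -0.29 and -1.51, while stressed means stayed between -0.39 and -0.04.

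The effect of loading itself was tested for a difference between the classes, and 4 probe sets passed, which is 0.0114%, with 4559 at an unadjusted p under 0.05. Hoxa9, a homeobox gene that marks position along the body axis, read -1.39, -1.78, 0.87 and 1.09 in unstressed and 1.41, 1.24, -1.99 and -1.31 in stressed replicates. The loading difference was thus 2.91 in the low class and -2.63 in the high class. The effects differed by -5.54 (limma adjusted p = 0.016), the high minus the low class. Hoxc10, another gene of posterior position, differed between classes by -3.44 (limma adjusted p = 0.021). Its stressed replicates 1 and 2 at 2.20 and 2.44 stood above the other day 14 arrays, all between -0.25 and 0.99. Spink12, a protease inhibitor gene, differed by -4.69 (limma adjusted p = 0.011), with high values in unstressed replicates 3 and 4 and stressed replicates 1 and 2. The remaining probe set, for the predicted gene Gm13306, ran the other way at 3.12.

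**Figure D5:**
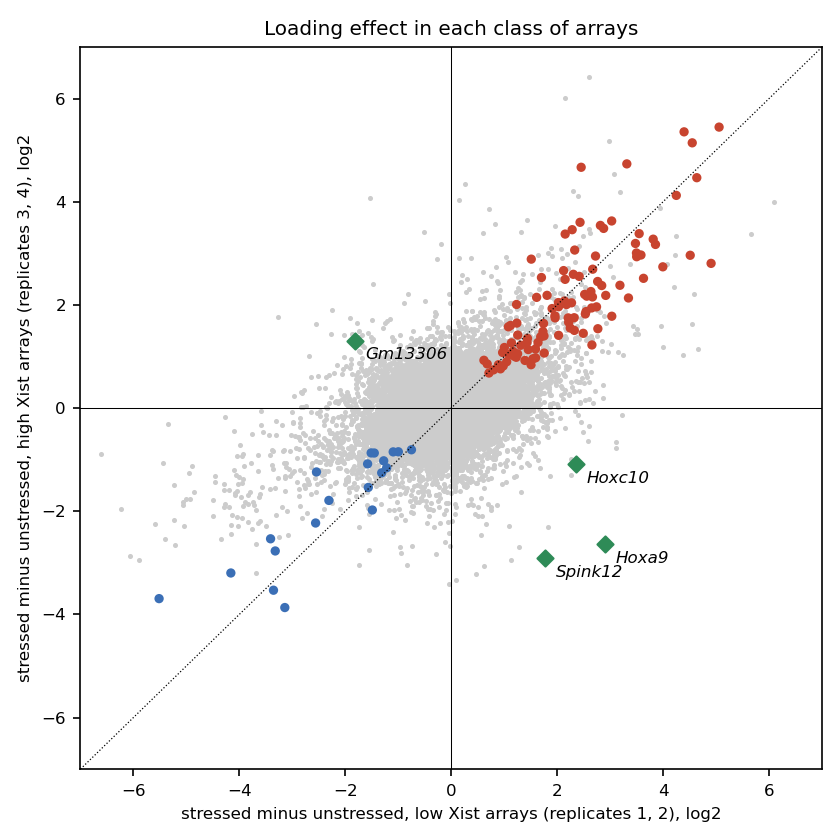
Each point is 1 probe set, with the stressed minus unstressed difference in log2 signal within the low Xist arrays on the x axis and within the high Xist arrays on the y axis; red and blue points are the 122 calls over all 8 arrays and green diamonds the 4 probe sets whose effects differ between the classes. The 122 calls lie at the lower left and upper right, Hoxa9, Hoxc10 and Spink12 at the lower right.

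Of the 102 probe sets that rose at day 14, 98 had a positive difference at day 6, after 48 hours of loading. The median day 6 difference of the 102 was 0.60. Over all 18193 genes, at 1 probe set a gene, the median difference at day 6 was 0.01. The share of all probe sets with a positive difference at day 6 was not counted, so the 98 has nothing to be set against. Genes that fell at day 14 had day 6 differences of either sign. Examples are 0.55 for Retnla and 0.19 for Cxcl13, and -0.79 for Gpat3 and -0.69 for Neu2. The difference between the loading effects at the days was tested over all 16 arrays. In it 3 probe sets passed, which is 0.00858%, with 3506 at an unadjusted p under 0.05. All 8 day 6 arrays had low Xist, so this sets a mixed-class effect at day 14 against a low-class effect at day 6. Within the low class of day 14 the differences were 5.06 for Cthrc1, -5.52 for Apobec2 and -2.54 for Prkg2. Cthrc1 differed by 0.90 (SE 0.31) at day 6 and so gained 4.35 (SE 0.44, limma adjusted p = 0.0015). Apobec2 differed by 0.17 at day 6 and its effect changed by -4.78 (SE 0.69, limma adjusted p = 0.047). Prkg2 differed by 1.42 at day 6 and by -1.89 at day 14, a change of -3.31 (SE 0.45, limma adjusted p = 0.039). Blocking on replicate number gave 16.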

How the data were processed

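The deposited values are log-scale signals, read as log2, that the authors made from scanned Affymetrix arrays with GeneSpring GX 11.0 and centred per probe set, per the series design text and the values. How background and array differences were treated is not given in the sources used here. Probe sets were named with the platform annotation: of 45101, 932 with several symbols and 9224 with none, controls included, were left out. The day 14 fit used lmFit and eBayes of limma 3.58.1, under R 4.3.3, two-sided, threshold 0.05; tables and figures were made with Python 3.11.15. The code was tested on simulated data.

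No 2 arrays of a group held identical values: the SD of their differences ran from 0.296 to 0.653, and technical noise was not measured. Where nothing says samples came from separate animals, p-values measure only the spread between samples. Same-numbered arrays correlated at 0.25, 0.17, 0.26 and 0.14, and differently numbered arrays of the same Xist class at 0.07 to 0.23, so number and class are hard to tell apart. The main fit used no pairing. Only the fits with the replicate number as a block treat it as a pairing, which the labels do not state.

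Named genes are the 15 largest calls each way, up to 5 members a list with the smallest p, up to 6 each way for the difference tests, and Ccl2, Acta2, Col1a1, Col3a1, Xist and Y-linked genes; any other gene was picked with its values in view. The members and all 48 lists were chosen with earlier results of these data known. Symbols were matched exactly, since 6 matches by synonym led to other genes. Alternatives are listed in the closing section.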

Additional observations from a re-analysis of the deposited data

Results flagged for a closer look

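Over 90 genes and list means, 180 groups of 4 arrays were searched for an array set apart from its group by Dixon's criterion at the 95% level, and 16 were found; chance alone gives about 1 in 20. Unstressed replicate 3 was the low array for Loxl1 at -2.93, Mfap4 at -3.53, Lum at -2.57 and Ckmt2 at -0.90, and for the list means of proteoglycans, glycoproteins and elastic fibre at -1.73, of matrix proteases and inhibitors at -1.51 and of fast muscle at -1.09. Stressed replicate 4 was the high array for Timp4 at -0.72 and Ckmt2 at -1.25, and unstressed replicate 4 for Ccn3 at -1.16 and Ccl2 at -1.22. Low arrays were stressed replicate 1 for Plagl1 at 0.38 and Sfrp2 at -0.66, stressed replicate 2 for Shisa2 at -0.45, unstressed replicate 4 for Gria3 at -1.42 and unstressed replicate 2 for Fosb at -1.12.

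The loading effect at day 14 differed between the array classes, high minus low Xist, by -5.54 for Hoxa9, -3.44 for Hoxc10, -4.69 for Spink12 and 3.12 for Gm13306. It differed between the days, day 14 minus day 6, by 4.35 for Cthrc1, -4.78 for Apobec2 and -3.31 for Prkg2. Both differences were tested in limma at an adjusted p of 0.05.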

How the results depend on the processing

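None of the 53 called genes named in the text changed sign in 22 alternative settings. For fits on fewer arrays, with array weights or with a block this was fixed in advance, because their groups do not overlap. The number of calls depended strongly on the fit. Against 122 (102 higher, 20 lower), the count was 538 (325, 213) with the replicate number as a block, 1153 (706, 447) with the Xist class as a block, 2287 (1066, 1221) with array weights, 2567 (1156, 1411) with all 16 arrays, 491 (328, 163) with quantile-normalized arrays and 354 (256, 98) without the less variable 50%. It was 4568 (1937, 2631) within the low and 3 (3, 0) within the high Xist class, and 4085 (1771, 2314) with all arrays and the class as a block, a fit chosen after seeing the data. Leaving out 1 array gave 16 to 915 calls, 15 to 331 higher and 1 to 584 lower. Median centring, 1 probe set per gene, the mean of probe sets, leaving out the cross-hybridising types and robust eBayes stayed within 1.5 times. The difference between days gave 16 (7, 9) with the replicate number as a block, 2 higher with quantile normalization, and 7 (4 higher) with 1 probe set per gene.

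Signs reversed for Col1a1 with the mean of probe sets (0.38); for Acta2 in the high class (0.49) and in 4 of the fits without 1 array (0.08, 0.13, 0.19 and 0.29, in a range of -0.54 to 0.29); for Hoxa9 in the high class (-2.63) and in 4 of the fits without 1 array (-0.22, -0.33, -0.36 and -0.39, in a range of -0.39 to 0.75); for Hoxc10 in the high class (-1.09); and for Spink12 in the low class (1.77), with array weights (0.60) and without unstressed replicate 4 (0.00, in a range of -1.09 to 0.00). The cause was not tested. With the replicate number as a block, Prkg2, Bcl2l1, Hsp90b1 and Matn2 lost their calls, at adjusted p of 0.058, 0.055, 0.056 and 0.053. Signal over background cannot be judged from centred values.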

Other observations

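Among 29 imprinted genes, a list added after seeing the data, 4 rose and 0 fell in limma, with a median difference of 0.22. They were Meg3, a maternally expressed long RNA, at 3.56, Mest at 3.07, the zinc finger gene Plagl1 at 2.45 and the cell cycle inhibitor Cdkn1c at 1.36, kept in 5, 2, 8 and 5 of the 8 fits without 1 array. Meg3 read -2.13, -2.34, -3.63 and -3.28 in unstressed and -0.10, 0.54, 1.65 and 0.77 in stressed replicates, without overlap. Its 11 probe sets ranged from 0.04 to 3.56 and only 1 passed. Of 33 Hox genes, a list likewise added afterwards, 0 passed in limma and 5 had an unadjusted p under 0.05, against 1679 higher and 1799 lower of all 18193 genes.

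The immediate early genes Fosb and Egr1, which answer acute stimuli, differed by -2.40 and -1.69, with adjusted p of 0.091 and 0.12 in limma, and Fosb passed with the replicate block at 0.045.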
